A study of Homo sapiens with 8 samples.

Results

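Complex I, the NADH:ubiquinone oxidoreductase of the respiratory chain, was followed at the RNA level through the 46 protein-coding genes, of 58051 genes in the count tables, whose symbols name them as its subunits or assembly factors. The symbols begin with NDUFA, NDUFB, NDUFC, NDUFS or NDUFV and a number, or with NDUFAF and a number, and readthrough genes joined by a hyphen were left out. The samples came from MDA231 (MDA-MB-231) cells, a mesenchymal, triple-negative human breast cancer line which was harvested untreated, in full medium and before confluency. Parental cells (2 samples) were unmodified. SDHBKO cells (3 samples) carried a TALEN-induced knockout of SDHB, the iron-sulfur subunit of complex II, and had been selected with hygromycin. SDHBKO SDHAlow cells (3 samples) carried the same SDHB knockout together with an shRNA against SDHA, the flavoprotein subunit of complex II. Whether each subline was a single clone, and whether the replicates were grown as separate cultures, was not stated in the sources used here, so that p-values measure only the spread between these samples. Parental cells served as the control for the SDHB knockout, and SDHBKO cells as the control for the loss of SDHA. As parental cells were unmodified, loss of SDHB, the transfection, the hygromycin selection and other differences between the sublines cannot be told apart. Cells transfected with the shRNA had been selected with puromycin, and whether the SDHBKO samples carried an empty vector or had been exposed to puromycin was not given in the sources used here, so that loss of SDHA, the vector and this selection cannot be told apart.

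Complex I takes electrons from NADH and passes them through a flavin and a chain of iron-sulfur clusters to ubiquinone, and couples this transfer to proton pumping across the inner mitochondrial membrane. Its L-shaped structure has a peripheral arm in the matrix, where the catalytic core lies, and a membrane arm, whose core is encoded by mitochondrial DNA and is surrounded by accessory subunits. Complex II feeds electrons from succinate into the same ubiquinone pool, and assembly factors join the modules of complex I but do not remain in the finished enzyme.

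RNA was sequenced from its 3′ ends, and between 773042 and 1427141 reads per sample were counted on genes. The 46 genes took between 0.729% and 0.897% of these reads, the highest share being that of SDHBKO replicate 1. The share of reads in rows that name no gene was higher in the SDHBKO samples (26.0% to 28.6%) than in the 5 others (18.8% to 24.4%), and its part in the comparisons was not tested. Of the 46, 39 had a mean normalized count above 5 and were among the 7550 genes tested, and 7 were below it. Levels are given as CPM, counts per 1000000 reads on tested genes after TMM scaling. Markers of the line were present in every sample, such as VIM with 597 to 918 counts and AXL with 1442 to 3025, whereas ESR1, PGR and the leukocyte gene PTPRC had 0 counts. Not all listed markers were as clear. S100A4, listed as present, had only 3 to 13 counts, and GATA3, listed as low or absent, had 8 to 20. SDHA, the knockdown target, was at 74.0 and 91.6 CPM in parental cells, at 148, 135 and 151 CPM in SDHBKO cells and at 8.45, 12.7 and 17.8 CPM in SDHBKO SDHAlow cells. It was lower in SDHBKO SDHAlow cells by both comparisons, with a log2 fold change of -3.46 ± 0.28 (SE) against SDHBKO cells and an edgeR adjusted p of 1.16e-07. SDHB had only 0 to 4 counts per sample, 4 and 3 of them in parental cells, and the targeted exon 1 lies at the opposite end of the gene from the reads, so that its knockout could not be read from these libraries.

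The peripheral arm had 6 of its 7 core genes above the count minimum. The missing member was NDUFV2, which holds an iron-sulfur cluster beside the flavin and had 0 to 2 counts per sample. Among the accessory genes, NDUFA7 had 0 or 1 count and NDUFB3, of the distal membrane arm, 1 to 8 counts. Of the assembly factors, NDUFAF2 had 1 to 8 counts, NDUFAF5 had 0 to 9 and NDUFAF7 had 0 to 5. NDUFA4L2 had 0 counts in all 8 samples. Its paralog NDUFA4 was tested and is counted among the 39 genes by its name, though neither is a stable subunit of complex I. For the 7 genes below the minimum no change was detectable at these counts. At the depth of these libraries, 3 counts correspond to between 2.10 and 3.88 counts per 1000000 counted reads. The last 300 transcript bases of NDUFV2 and NDUFA7 also overlap with another gene on the same strand, by 83.7% and 57.3%. The part of these overlaps in their low counts was not tested.

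**Figure D1:**
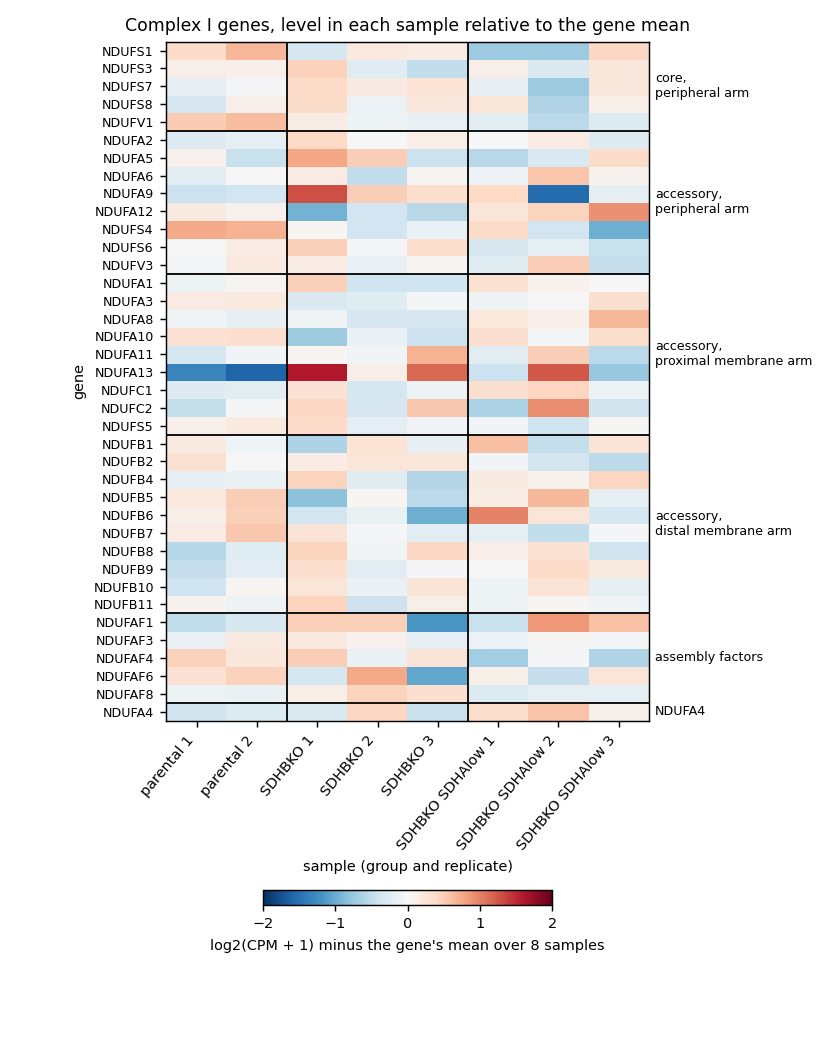
Level of 38 of the 39 tested complex I genes (rows, grouped by their place in the complex, with NDUFA4 apart) in the 8 samples (columns), as log2(CPM + 1) minus the mean of the gene over the 8 samples, red above and blue below. SDHBKO replicate 1 is red in most rows. On another scale, log2 CPM with a prior count of 2, its median deviation over all 39 tested genes is 0.26, whereas the medians of the other 7 samples lie between -0.10 and 0.04.

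The complex I genes did not move as a block between the groups. The levels of the 39 genes summed to 7049 and 8056 CPM in parental cells, to 9699.8, 7422 and 8443 CPM in SDHBKO cells, and to 7558, 7769 and 7259.5 CPM in SDHBKO SDHAlow cells. SDHBKO replicate 1 was the highest sample and the other SDHBKO samples lay within or near the range of the remaining groups. The group means were 7553 ± 712 (SD, n = 2), 8522 ± 1141 (SD, n = 3) and 7529 ± 256 (SD, n = 3) CPM. Parental cells had the highest mean for 12 of the genes, SDHBKO cells for 16 and SDHBKO SDHAlow cells for 11, and the lowest mean for 16, 10 and 13. These are 30.8%, 41.0% and 28.2% of the 39 genes for the highest mean and 41.0%, 25.6% and 33.3% for the lowest, beside 36.0%, 33.6% and 30.5% and 37.2%, 35.1% and 27.7% of all genes. As these were bulk samples, fewer cells expressing a gene and less RNA per cell cannot be told apart.

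**Figure D2:**
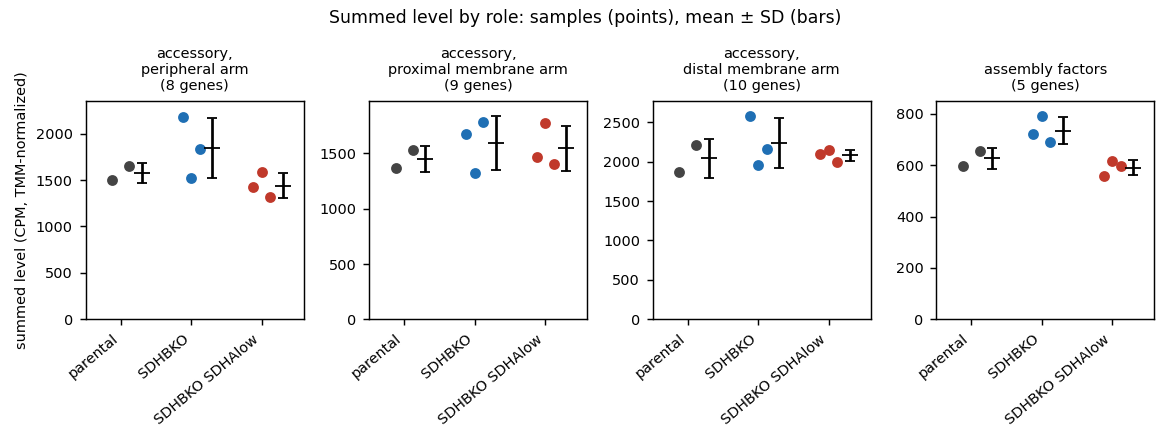
Summed level (CPM, linear axis from 0) of the tested accessory subunits and assembly factors of complex I by place in the complex, with samples as points and the group mean ± SD as bars beside them. The groups overlap in the accessory panels, and in the assembly factor panel the 3 SDHBKO samples (689.6 to 790.4 CPM) lie above the 5 others (556 to 654 CPM), most of the difference being that of NDUFAF8.

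By place in the complex, the sums of the 3 groups overlapped for the accessory genes of each arm. The 5 assembly factors summed to 598 and 654 CPM in parental cells, 721, 790.4 and 689.6 CPM in SDHBKO cells and 556, 616 and 598 CPM in SDHBKO SDHAlow cells. Of these 4 groups of genes, the assembly factors were the one in which the SDHBKO samples did not overlap with the others, and no test was made on a sum. This separation lay mostly in 1 gene, NDUFAF8, whose mean was 307 CPM in parental and 410.1 CPM in SDHBKO cells, while the sum had means of 626 and 734 CPM. In the same groups NDUFAF3 had means of 289.7 and 294 CPM, NDUFAF4 of 16.0 and 14.7 CPM, NDUFAF6 of 7.45 and 5.42 CPM and NDUFAF1 of 6.21 and 9.26 CPM.

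To ask whether loss of SDHB altered the transcripts of complex I, SDHBKO cells were compared with parental cells. Expression of 3 of the 39 genes tested was higher in SDHBKO cells, NDUFA9 and NDUFA13 among them, and none was lower at an edgeR adjusted p below 0.1, against 5.54% of all 7550 genes tested (3.14% higher and 2.40% lower). DESeq2 did not call NDUFA9 and gave no adjusted p for NDUFA13, and it called 3 genes, among them NDUFB8 as higher and NDUFV1 as lower, against 12.4% of all genes to which it gave an adjusted p. Of the complex I genes, it gave one to 5 core and 2 assembly factor genes. Among accessory genes it gave one to 6 of the peripheral, 8 of the proximal and 8 of the distal membrane arm. At an unadjusted p below 0.05 there were 7 complex I genes, and 17.5% of all genes. The log2 fold changes were positive for 22 genes and negative for 17, with a median of 0.05 beside -0.0007 for all genes. Every SDHBKO sample lay above every parental sample for 8 genes and below for another 8, which was the case for 19.3% and 18.6% of all genes (37.9% together). Of the 39 genes, 21 had a 95% interval that stayed within a 2-fold change in either direction, as had 31.7% of all genes, and the median SE was 0.26 against 0.39.

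NDUFA9, an accessory subunit where the arms of the complex join, was at 116 and 119 CPM in parental cells, at 383, 219 and 199 CPM in SDHBKO cells, and at 206, 53.0 and 136 CPM in SDHBKO SDHAlow cells. All SDHBKO samples were above the parental pair, replicate 1 by the widest margin, and the SDHBKO SDHAlow samples lay on both sides of it. The log2 fold change in SDHBKO cells was 1.18 ± 0.38 (SE) with an edgeR adjusted p of 0.0999, just inside the threshold. It was 0.83 without SDHBKO replicate 1 (adjusted p = 0.372). The call was also lost without SDHBKO replicate 2 or 3, either parental sample, or SDHBKO SDHAlow replicate 3, with adjusted p values of 0.104, 0.125, 0.542, 0.351 and 0.103. It was lost as well by DESeq2, with a log2 fold change of 1.19 (adjusted p = 0.235), and with the filterByExpr filter (adjusted p = 0.107). Over its 18 alternatives NDUFA9 was called in 6, with adjusted p values from 0.00207 to 0.542.

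NDUFA13 (GRIM-19), an accessory subunit of the membrane arm that was also described as a cell death regulator, had 3 and 2 counts in parental cells. It had 24, 10 and 22 counts in SDHBKO cells, and 6, 34 and 5 in SDHBKO SDHAlow cells. The levels were 3.47 and 2.66 CPM, then 32.8, 11.1 and 23.7 CPM, then 7.24, 25.4 and 5.57 CPM in the same order. The parental samples were the lowest, and the SDHBKO SDHAlow group held 1 sample at the SDHBKO level and 2 between. As both parental counts were below the count minimum of 5, its mean of 12.3 passed this minimum through the other samples. Its log2 fold change in SDHBKO cells was 2.80 ± 0.78 (SE, 95% interval 1.18 to 4.42), with an edgeR adjusted p of 0.0596, and DESeq2 gave no adjusted p at these counts. The call was lost without SDHBKO replicate 1 or 3 (adjusted p = 0.21 and 0.144) and without parental replicate 1 or 2 (0.458 and 0.297). The last 300 transcript bases of NDUFA13, from which these libraries read, overlap by 72.7% on the same strand with a gene that has no symbol and was listed at 0 counts, so that its counts are uncertain.

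The core subunits of the peripheral arm lay on both sides of the parental level in SDHBKO cells. NDUFS7, which carries the last iron-sulfur cluster before ubiquinone, was at 150.4 and 166 CPM in parental cells, at 219, 190.1 and 204 CPM in SDHBKO cells and at 149.6, 101 and 197 CPM in SDHBKO SDHAlow cells. All SDHBKO samples were above the parental pair, with a log2 fold change of 0.37 ± 0.26 (SE, edgeR adjusted p = 0.486). NDUFS1, which guides electrons away from the flavin through several clusters, was at 13.9 and 17.3 CPM, at 8.21, 12.2 and 11.9 CPM and at 6.03, 5.97 and 14.5 CPM in the same order of groups. The SDHBKO samples were below the parental pair, with a log2 fold change of -0.51 ± 0.55 (SE, edgeR adjusted p = 0.681). NDUFS3 was at 474 and 466 CPM in parental cells, at 601, 370.2 and 311 CPM in SDHBKO cells and at 474, 357 and 508 CPM in SDHBKO SDHAlow cells. The iron-sulfur subunit NDUFS8 was at 198 and 271 CPM, at 324, 232 and 294 CPM and at 298, 166 and 272 CPM. For both genes the 3 groups overlapped, and SDHBKO replicate 1 was the highest sample.

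Accessory genes of the peripheral arm lay on both sides in SDHBKO cells. NDUFA2, which has a thioredoxin-like fold, was at 68.3 and 71.7 CPM in parental cells, at 108, 81.2 and 89.6 CPM in SDHBKO cells, and at 82.1, 91.0 and 68.0 CPM in SDHBKO SDHAlow cells. NDUFS4, a subunit of the NADH-binding module added late in assembly, was at 20.8 and 19.9 CPM, at 12.3, 8.89 and 10.8 CPM and at 15.7, 8.95 and 5.57 CPM. The SDHBKO samples did not overlap with the parental ones for either gene, NDUFA2 being above them and NDUFS4 below, and neither passed the test. The log2 fold changes in SDHBKO cells were 0.41 ± 0.26 (SE, edgeR adjusted p = 0.446) for NDUFA2 and -0.93 ± 0.51 (SE, edgeR adjusted p = 0.355) for NDUFS4.

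In the proximal membrane arm, NDUFA10 and NDUFA3 were below, and NDUFA11 above, the parental samples in every SDHBKO sample. NDUFA10, which has the fold of a nucleoside kinase, was at 93.7 and 96.9 CPM in parental cells, at 46.5, 70.0 and 57.2 CPM in SDHBKO cells and at 96.5, 74.6 and 98.1 CPM in SDHBKO SDHAlow cells. The SDHBKO SDHAlow samples reached the parental level again in replicates 1 and 3. NDUFA3, a small membrane subunit, was at 161 and 163 CPM, at 116, 120.1 and 139 CPM and at 133, 144 and 178 CPM. NDUFA11, which spans the membrane between the modules, was at 452 and 555 CPM, at 597, 560.3 and 936 CPM and at 492, 817 and 399 CPM. In SDHBKO against parental cells the log2 fold changes were -0.71 ± 0.26 (SE, edgeR adjusted p = 0.151) for NDUFA10, -0.37 ± 0.23 (SE, edgeR adjusted p = 0.43) for NDUFA3 and 0.47 ± 0.28 (SE, edgeR adjusted p = 0.393) for NDUFA11.

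Of the 10 tested genes of the distal membrane arm and the 5 assembly factors, edgeR called none in SDHBKO cells, against 5.54% of all genes. At an unadjusted p below 0.05 there were 1 gene and 0 genes, against 17.5% of all genes. DESeq2 called 1 of the 8 distal genes and 0 of the 2 assembly factors to which it gave an adjusted p, against 12.4% of all such genes. NDUFB8 was the gene called by DESeq2, and it was at 324 and 405 CPM in parental cells, at 651, 460.2 and 639 CPM in SDHBKO cells and at 525, 586 and 363 CPM in SDHBKO SDHAlow cells. The SDHBKO samples were above the parental pair, by a log2 fold change of 0.68 ± 0.24 (SE, edgeR adjusted p = 0.129). The lowly counted subunits NDUFB5 and NDUFB6 were below it. NDUFB5 was at 15.0 and 18.6 CPM, at 6.84, 13.3 and 8.63 CPM and at 14.5, 20.9 and 11.1 CPM, and its log2 fold change in SDHBKO cells was -0.78 ± 0.52 (SE, edgeR adjusted p = 0.463). NDUFB6 was at 8.10 and 10.6 CPM, at 5.47, 6.67 and 3.24 CPM and at 15.7, 8.95 and 5.57 CPM, and its log2 fold change in SDHBKO cells was -0.85 ± 0.67 (SE, edgeR adjusted p = 0.551). In SDHBKO SDHAlow cells NDUFB6 and NDUFS4 had the same 13, 12 and 5 counts, and thus equal levels. NDUFAF8, the partner of the assembly factor NDUFAF5, was at 311 and 303 CPM in parental cells, at 361, 452 and 417 CPM in SDHBKO cells and at 274, 293 and 291 CPM in SDHBKO SDHAlow cells. Its SDHBKO samples were above all others, with a log2 fold change against parental cells of 0.42 ± 0.21 (SE, edgeR adjusted p = 0.298).

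**Figure D3:**
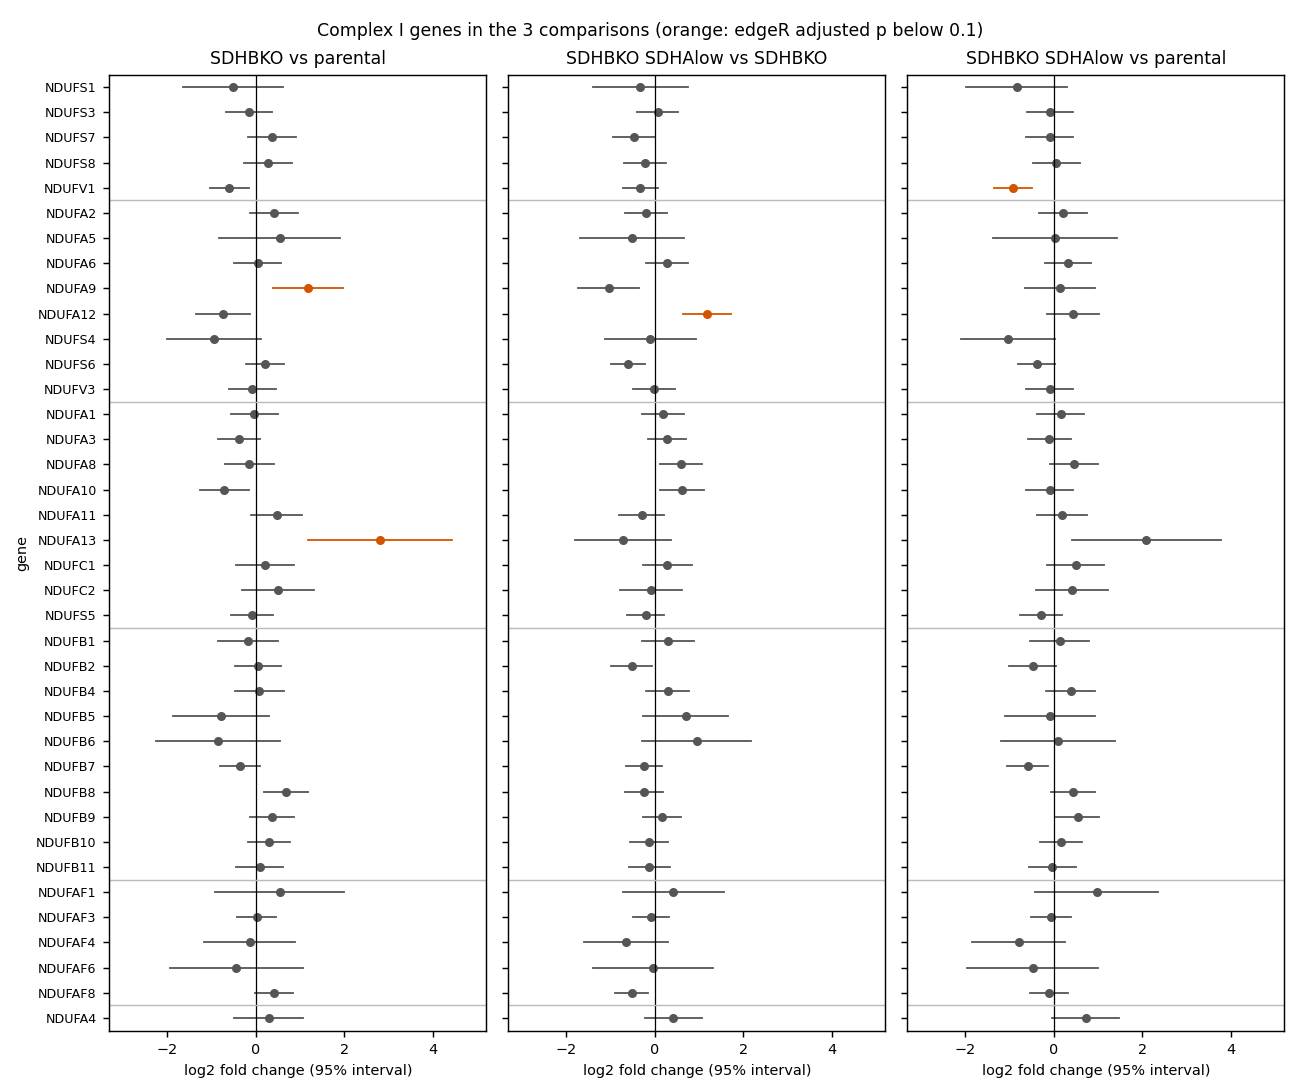
Log2 fold change of 38 of the 39 tested complex I genes (points) with its 95% interval (lines) in the 3 comparisons, genes grouped by place in the complex with NDUFA4 apart, and orange where the edgeR adjusted p was below 0.1. Most intervals cross 0, and the called genes shown are NDUFA9 and NDUFA13 in the left panel, NDUFA12 in the middle panel and NDUFV1 in the right panel.

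To ask what the additional loss of SDHA altered, SDHBKO SDHAlow cells were compared with SDHBKO cells. As the SDHBKO samples also enter the comparison with parental cells, changes in opposite directions in both are not independent of each other. Expression of 1 of the 39 genes, NDUFA12, was higher and none was lower by edgeR, against 1.51% of all genes tested (0.318% higher and 1.19% lower). DESeq2 called NDUFA12 and, as lower, NDUFS6, against 2.85% of all genes with an adjusted p. It gave one to as many complex I genes by place as in the first comparison, and to NDUFA4. At an unadjusted p below 0.05 there were 7 complex I genes, and 12.1% of all genes. The log2 fold changes were positive for 15 genes and negative for 24, with a median of -0.10 beside 0.01 for all genes. Without SDHBKO replicate 1 the median of the complex I genes was -0.0034, and without SDHBKO replicate 2 it was -0.23. Of the 39 genes, 25 had a 95% interval within a 2-fold change in either direction, as had 44.8% of all genes.

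NDUFA12, an accessory subunit that takes the place of the assembly factor NDUFAF2 late in assembly, was at 72.9 and 67.7 CPM in parental cells, at 32.8, 48.9 and 43.2 CPM in SDHBKO cells, and at 76.0, 87.3 and 121 CPM in SDHBKO SDHAlow cells. The SDHBKO samples were the lowest and did not overlap with either of the other groups, and the SDHBKO SDHAlow samples were the highest. In SDHBKO SDHAlow against SDHBKO cells the log2 fold change was 1.18 ± 0.26 (SE, 95% interval 0.64 to 1.71), with an edgeR adjusted p of 0.027. It was 0.97 without SDHBKO SDHAlow replicate 3 (adjusted p = 0.21), 1.04 without SDHBKO replicate 1 (0.165) and 1.19 without SDHBKO replicate 3 (0.125), so that the call rested on each of these samples. Against parental cells the log2 fold change was -0.75 ± 0.29 (SE, edgeR adjusted p = 0.176) in SDHBKO cells and 0.43 ± 0.28 (SE, edgeR adjusted p = 0.562) in SDHBKO SDHAlow cells.

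In the same comparison, NDUFA9 had a log2 fold change of -1.04 ± 0.33 (SE, edgeR adjusted p = 0.183), and its lowest sample was SDHBKO SDHAlow replicate 2. Without SDHBKO SDHAlow replicate 1 the value was -1.52 and passed the test (adjusted p = 0.0504), which it did with none of the other 7 samples left out. It was -0.66 without SDHBKO SDHAlow replicate 2 (adjusted p = 0.145) and -0.69 without SDHBKO replicate 1 (adjusted p = 0.57). It also passed without a filter on low counts (adjusted p = 0.00337). NDUFS6, a zinc-binding subunit of the NADH-binding module named here after its values were seen, was at 825 and 916 CPM in parental cells, at 1155, 812 and 1053 CPM in SDHBKO cells and at 665, 725 and 606 CPM in SDHBKO SDHAlow cells. All SDHBKO SDHAlow samples were below all the others, by a log2 fold change of -0.60 ± 0.18 (SE, edgeR adjusted p = 0.169) against SDHBKO cells. Every SDHBKO SDHAlow sample lay above every SDHBKO sample for 3 genes (NDUFA8, NDUFA10 and NDUFA12) and below for 4 (NDUFV1, NDUFS6, NDUFB2 and NDUFAF8), against 8.70% and 8.69% of all genes (17.4% together). NDUFA13, NDUFB5 and NDUFB6, whose samples are given above, overlapped between these groups, with log2 fold changes of -0.71 ± 0.52, 0.70 ± 0.46 and 0.94 ± 0.59 (SE). These values depended on single samples. NDUFA13 ran from -1.80 without SDHBKO SDHAlow replicate 2 to -0.36 without SDHBKO replicate 1, also being -0.37 and -0.45 without SDHBKO SDHAlow replicates 3 and 1. NDUFB5 ran from 0.37 without SDHBKO SDHAlow replicate 2 to 1.01 without SDHBKO replicate 2, and NDUFB6 from 0.53 without SDHBKO SDHAlow replicate 1 to 1.21 without SDHBKO SDHAlow replicate 3, and none of the 3 genes was called with any sample left out. Of the core genes, 5 had negative values and NDUFS3 a positive one, from -0.46 to 0.07. None of the 6 was called by edgeR, against 1.51% of all genes, and 0 had an unadjusted p below 0.05, against 12.1%. DESeq2 called 0 of the 5 with an adjusted p, against 2.85% of all such genes.

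Against parental cells, expression in SDHBKO SDHAlow cells was lower for 1 complex I gene, NDUFV1, and higher for none by edgeR, as for 0.689% and 0.225% of all genes (0.914% in all). DESeq2 called 1 gene as well, NDUFV1 again and as lower, against 1.99% of all genes with an adjusted p. It gave one to as many complex I genes by place as in the first comparison, and to NDUFA4. At an unadjusted p below 0.05 there were 5 complex I genes, and 12.3% of all genes. The median log2 fold change was 0.06, beside 0.02 for all genes, with 21 positive and 18 negative values. Groups did not overlap for 8 genes with higher and 9 with lower levels in SDHBKO SDHAlow cells, against 15.2% and 15.5% of all genes (30.7% together). Of the 39 genes, 23 had a 95% interval within a 2-fold change in either direction, as had 36.4% of all genes.

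NDUFV1, the core subunit that binds NADH and the flavin, was at 385 and 417 CPM in parental cells, at 301, 252 and 245 CPM in SDHBKO cells and at 230.5, 185 and 224 CPM in SDHBKO SDHAlow cells. The 3 groups did not overlap, with parental samples highest and SDHBKO SDHAlow samples lowest. The log2 fold change in SDHBKO SDHAlow against parental cells was -0.91 ± 0.21 (SE, 95% interval -1.35 to -0.48), with an edgeR adjusted p of 0.0696. In SDHBKO against parental cells it was -0.59 ± 0.21 (SE, edgeR adjusted p = 0.129), and in SDHBKO SDHAlow against SDHBKO cells -0.32 ± 0.19 (SE, edgeR adjusted p = 0.525). The call against parental cells was lost without parental replicate 1 (adjusted p = 0.799), parental replicate 2 (0.335) or SDHBKO SDHAlow replicate 1 (0.173), whereas the log2 fold change stayed between -0.97 and -0.82 with each of the 8 samples left out.

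The other large values in SDHBKO SDHAlow against parental cells belonged to genes with few counts. NDUFA13 had a log2 fold change of 2.09 ± 0.81 (SE, edgeR adjusted p = 0.283), which was 1.01 without SDHBKO SDHAlow replicate 2. NDUFS4 had -1.03 ± 0.51 (SE, edgeR adjusted p = 0.42) and NDUFS1 -0.83 ± 0.55 (SE, edgeR adjusted p = 0.573). NDUFAF1, which builds an early part of the membrane arm, was at 5.78 and 6.64 CPM in parental cells, at 12.3, 12.2 and 3.24 CPM in SDHBKO cells and at 6.03, 16.4 and 13.4 CPM in SDHBKO SDHAlow cells. Its groups overlapped, and the log2 fold change was 0.97 ± 0.67 (SE, edgeR adjusted p = 0.597).

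**Figure D4:**
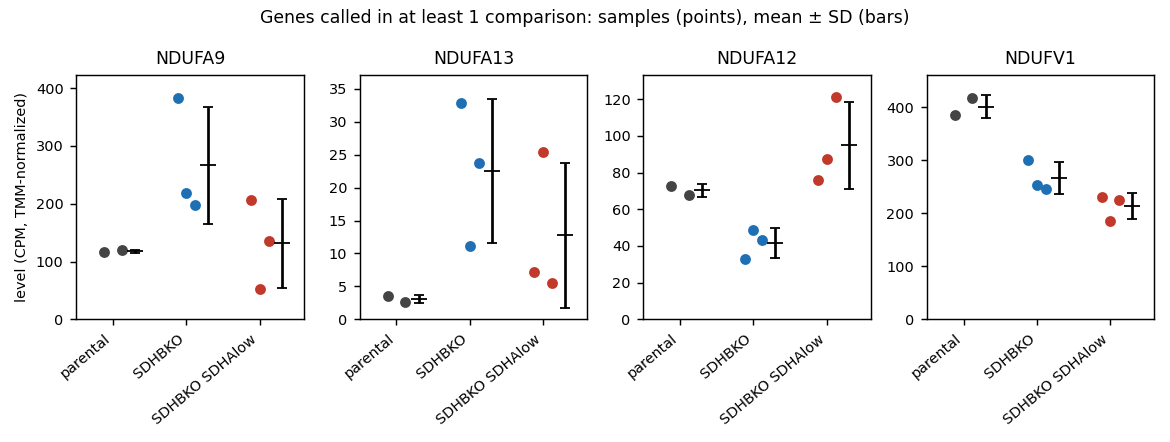
Level (CPM, linear axes from 0) of 4 complex I genes called in at least 1 comparison, with samples as points and the group mean ± SD as bars. NDUFA9 and NDUFA13 have their lowest mean in parental cells, NDUFA12 has its lowest in SDHBKO cells (32.8 to 48.9 CPM), and NDUFV1 is highest in parental cells.

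Most tested genes around NDUFA9, on the short arm of chromosome 12, had values on the same side as NDUFA9 in SDHBKO against parental cells and in SDHBKO SDHAlow against SDHBKO cells, but not in SDHBKO SDHAlow against parental cells. In GENCODE (GRCh38), NDUFA9 (ENSG00000139180) lies at chr12:4649095-4694317, NDUFA12 (ENSG00000184752) at chr12:94895297-95003748, NDUFV1 (ENSG00000167792) at chr11:67605653-67612554 and NDUFA13 (ENSG00000186010) at chr19:19515736-19529054. Of the 45 other tested genes that start within 5 Mb of NDUFA9, 37 had higher values in SDHBKO than in parental cells, with a median log2 fold change of 0.47, and 1 was called higher. Among all 7550 genes tested, 3766 had positive values and 3.14% were called higher. In SDHBKO SDHAlow against SDHBKO cells, 2 of the 45 were higher, the median was -0.65, and 5 were called lower. Here 3856 of all 7550 genes had positive values and 1.19% were called lower. In SDHBKO SDHAlow against parental cells, 10 of the 45 were higher and the median was -0.31, beside 0.14 for NDUFA9. Positive values were held by 3882 of all 7550 genes in this comparison. The neighbours of NDUFA13 (75 genes), NDUFA12 (12 genes) and NDUFV1 (155 genes) had medians of 0.03, -0.02 and 0.06 in the comparison in which each was called. The part of the region in the values of NDUFA9 was not tested.

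**Figure D5:**
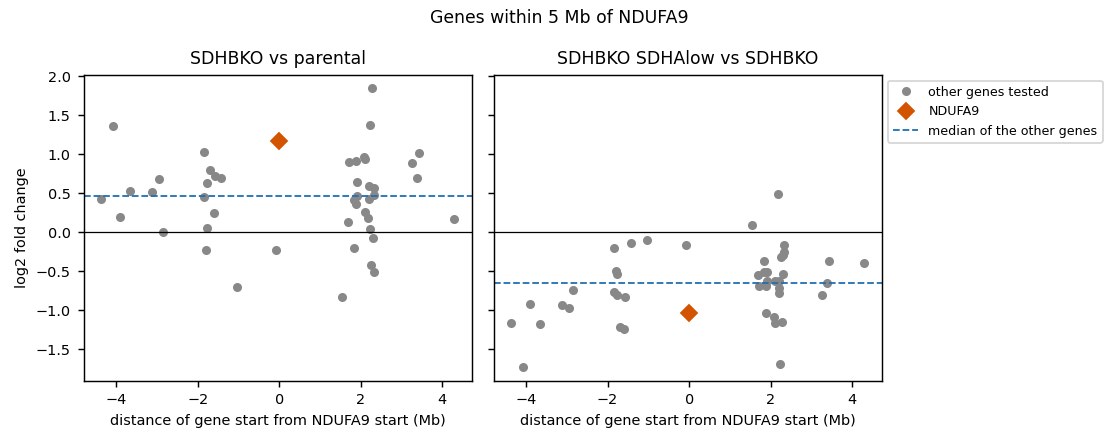
Log2 fold change (vertical axis) of the tested genes that start within 5 Mb of NDUFA9, against the distance of their start from that of NDUFA9 in Mb, in SDHBKO against parental cells (left) and SDHBKO SDHAlow against SDHBKO cells (right). The dashed lines mark the medians of the 45 other genes, at 0.47 and -0.65, and NDUFA9 (diamond) lies beyond both medians at 1.18 and -1.04.

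Promoters are shown for 4 called genes, since transcripts of the complex are known to share regulators such as NRF1 and the GA-binding protein. Of the 46 genes, 38 had at least 1 window in the RefSeq table used (GRCh38.p14), which gave 50 windows from 250 bases before to 50 bases after a transcript start. Each sequence runs 5′ to 3′ on the strand of the gene, and capitals mark a match on either strand to the motifs of NRF1 (GCGCA, any base, then GCGC), of ETS factors such as the GA-binding protein (CCGGAAG), of YY1 (ATGGCGG) and of SP1 and KLF factors (GGGCGG). The window of NDUFA9, at chr12:4648864-4649163 on the plus strand, held an NRF1 and a YY1 match, that of NDUFA12, at chr12:95003648-95003947 on the minus strand, an NRF1 match, and that of NDUFA13, at chr19:19515975-19516274 on the plus strand, YY1, SP1 and KLF, and ETS matches. The window of NDUFV1, at chr11:67606686-67606985 on the plus strand, held none of these letters.
NDUFA9: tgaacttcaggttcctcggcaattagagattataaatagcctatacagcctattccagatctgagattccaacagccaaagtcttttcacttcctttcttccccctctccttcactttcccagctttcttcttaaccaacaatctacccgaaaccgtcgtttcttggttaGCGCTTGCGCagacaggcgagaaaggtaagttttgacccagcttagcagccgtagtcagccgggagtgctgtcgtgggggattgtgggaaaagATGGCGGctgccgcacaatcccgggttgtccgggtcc
NDUFA12: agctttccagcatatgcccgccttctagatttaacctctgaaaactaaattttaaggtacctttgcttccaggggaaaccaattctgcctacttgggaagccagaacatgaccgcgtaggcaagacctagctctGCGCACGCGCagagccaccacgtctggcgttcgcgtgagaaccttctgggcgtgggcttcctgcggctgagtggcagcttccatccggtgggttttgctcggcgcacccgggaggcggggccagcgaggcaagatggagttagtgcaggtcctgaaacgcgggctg
NDUFA13: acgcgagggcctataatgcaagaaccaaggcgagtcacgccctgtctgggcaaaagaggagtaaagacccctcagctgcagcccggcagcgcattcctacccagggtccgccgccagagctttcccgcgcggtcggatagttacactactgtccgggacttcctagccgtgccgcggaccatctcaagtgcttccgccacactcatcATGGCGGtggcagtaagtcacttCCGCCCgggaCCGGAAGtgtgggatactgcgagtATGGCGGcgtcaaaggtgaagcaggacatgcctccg
NDUFV1: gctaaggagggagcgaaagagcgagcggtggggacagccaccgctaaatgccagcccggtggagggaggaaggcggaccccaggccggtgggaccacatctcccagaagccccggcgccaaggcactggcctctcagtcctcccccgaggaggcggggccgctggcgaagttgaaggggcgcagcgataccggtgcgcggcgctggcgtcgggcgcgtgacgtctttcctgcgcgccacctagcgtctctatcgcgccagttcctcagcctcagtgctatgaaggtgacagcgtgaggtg

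Over the complex I windows, the NRF1 letters were found in 14.0% (5.80% of all 35116 windows in the table), the ETS letters in 16.0% (10.3%), the YY1 letters in 38.0% (5.60%) and the SP1 and KLF letters in 66.0% (45.0%). The YY1 letters include a start codon, and the windows reach into the first transcribed bases. The median GC content was 60.8% in the complex I windows and 58.7% in all windows. The genes for regulators themselves were measured as well. Of 13 listed regulators of respiratory chain genes, among them NRF1, GABPB1, YY1, TFAM and the PGC-1 coactivator genes, 10 were tested. EdgeR called none in SDHBKO against parental, SDHBKO SDHAlow against SDHBKO and SDHBKO SDHAlow against parental cells. Of all genes it called 5.54%, 1.51% and 0.914%. In the same order, DESeq2 called none of the 2, 5 and 3 regulators with an adjusted p, against 12.4%, 2.85% and 1.99% of all such genes. At an unadjusted p below 0.05 there were 0, 1 and 1 regulators, against 17.5%, 12.1% and 12.3% of all genes. NRF1 was at 33.6 and 31.9 CPM in parental cells, at 26.0, 24.5 and 20.5 CPM in SDHBKO cells and at 15.7, 20.1 and 27.9 CPM in SDHBKO SDHAlow cells. Against parental cells its log2 fold changes were -0.47 ± 0.38 and -0.62 ± 0.38 (SE, edgeR adjusted p = 0.562 and 0.533). MYC, with 0 to 16 counts, went the other way in SDHBKO SDHAlow against parental cells, by 3.03 ± 0.88 (SE, edgeR adjusted p = 0.147). In that comparison 2 of the 10 regulators were higher and 1 lower without overlap, against 15.2% and 15.5% of all genes. PPARGC1A had 0 counts in all samples.

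Further complex I genes carry other names. Of 13 nuclear genes of this kind, such as the acyl carrier protein NDUFAB1 and the assembly factors ACAD9, ECSIT, TIMMDC1 and FOXRED1, 10 were tested. EdgeR called none in SDHBKO against parental, SDHBKO SDHAlow against SDHBKO and SDHBKO SDHAlow against parental cells. Of all genes it called 5.54%, 1.51% and 0.914%. In the same order, DESeq2 called none of the 5, 8 and 8 with an adjusted p, against 12.4%, 2.85% and 1.99% of all such genes. At an unadjusted p below 0.05 there were 1, 0 and 3 of the 10, against 17.5%, 12.1% and 12.3% of all genes. Their median log2 fold changes were 0.17, 0.18 and 0.46. In SDHBKO SDHAlow against parental cells 9 of the 10 values were positive, and 6 genes did not overlap between the groups, all higher, as for 15.2% of all genes. The genes for the membrane core of complex I, which lie in mitochondrial DNA, had 0 to 14 counts per sample after the authors had removed mitochondrial RNA reads, and were not tested. Of the 8 genes of complex II and its assembly, 5 were tested. SDHA was the gene called by edgeR, as lower in SDHBKO SDHAlow cells in both comparisons, against 1.51% and 0.914% of all genes. In SDHBKO against parental cells SDHA had a log2 fold change of 0.80 ± 0.26 (SE) and an edgeR adjusted p of 0.103. DESeq2 called it higher, as 1 of the 2 genes of this list with an adjusted p, against 12.4% of all such genes.

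Some complex I genes were harder to count than others. In 5 of the 46 genes (NDUFB8, NDUFV2, NDUFA11, NDUFA7 and NDUFA13) the last 300 transcript bases overlap with another gene on the same strand, by 36.7% to 83.7%, and all those other genes were listed at 0 counts. NDUFS7 overlaps by 94.3% with a gene on the opposite strand. Such overlaps were also found for NDUFA2 (41.3%), NDUFC2 (18.3%), NDUFA4L2 (11.0%) and NDUFB6 (4.0%). The strand setting of the counting was not given in the sources used here. Pseudogenes named after a member exist for 20 of the 46 genes. These 62 pseudogenes held 10 counts over the 8 samples together. The median GC content of the last 300 bases was 44.5% for the complex I genes and 43.3% for all genes tested.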

How the data were processed

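RNA of 8 MDA231 samples (2 parental, 3 SDHBKO, 3 SDHBKO SDHAlow) was sequenced with a QuantSeq 3′ mRNA kit, and the labels name the group and biological replicate. Per the labels and the paper's methods, the authors used Trimmomatic for trimming, took out reads of ribosomal and mitochondrial RNA, and counted reads per gene with STAR 2.5.2b on GRCh38, and the deposited raw counts are the values tested here. The authors also deposited a normalized signal (each count over the size factor of its sample), which served as a check only and in which the values of SDHBKO replicate 1 match the raw counts of replicate 3 and the reverse. Rows that name no gene held 18.8% to 28.6% of reads and were left out.

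The 7550 genes with a mean DESeq2-normalized count above 5 were fitted in edgeR 4.0.16 (R 4.3.3) by the quasi-likelihood method, with TMM scaling and the 3 groups in 1 fit, since parental cells had 2 samples (5 residual degrees of freedom). Benjamini-Hochberg adjustment was made over all genes tested within a comparison, and genes below 0.1 were called. The SE is the log2 fold change over the square root of F, and 95% intervals use t with the total degrees of freedom of the gene. No test was made over the complex I genes as a set. The complex I genes and the other lists were chosen with earlier results of these data known. Complex I genes given with all their samples were those called in any comparison, the 5 of largest change in each, the core subunits, and those whose SDHBKO and parental samples did not overlap. NDUFS6, NRF1 and, as a check of the labels, SDHA were given outside this rule. Values of 1 of the 39 tested genes are not reported here, though it stays in the counts and medians. Alternatives were DESeq2 1.42.0, its size factors within edgeR, filterByExpr, no filter, an adjusted p of 0.05, fits of 2 groups, the replicate number as a block, a GC correction, TMM over all genes (chosen after seeing the data) and each sample left out. Scripts were tested on simulated data. Names, positions and overlaps came from GENCODE 44 and promoters from RefSeq (GRCh38.p14).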

Additional observations from a re-analysis of the deposited data

How the results depend on the processing

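The number of complex I genes called changed with the processing. In SDHBKO against parental cells, 3 genes were called, beside 5 in a fit of only these groups (NDUFV1 and NDUFB8 in addition), 1 with the replicate number as a block, 0 with the block and SDHBKO replicates 1 and 3 exchanged, 1 with the GC correction and the block, 1 with TMM over all genes in the files (chosen after seeing the data) and 0 at an adjusted p of 0.05. With an SDHBKO or SDHBKO SDHAlow sample left out the count ran from 0 (without SDHBKO replicate 1 or 3) to 6 (without SDHBKO SDHAlow replicate 2). The calls over all genes moved as well, from 418 to 77, 148 and 833 in these 3 fits. In SDHBKO SDHAlow against SDHBKO cells, 1 gene was called, beside 2 by DESeq2, 2 without a filter and 0 with the block and the exchange, and from 0 (without SDHBKO SDHAlow replicate 3 or SDHBKO replicate 1 or 3) to 3 (without SDHBKO SDHAlow replicate 2) with a sample left out. Here the calls over all genes went from 114 to 47 without SDHBKO SDHAlow replicate 3 and to 362 without SDHBKO SDHAlow replicate 2. In SDHBKO SDHAlow against parental cells, 1 gene was called, beside 0 in a fit of only these groups, 0 with the block, 0 with the block and the exchange, 0 with the GC correction and the block and 0 at an adjusted p of 0.05, and from 0 (without either parental sample or SDHBKO SDHAlow replicate 1) to 1 with a sample left out. The median log2 fold change of the complex I genes with a sample left out ran from -0.06 to 0.14, from -0.23 to -0.0034 and from -0.04 to 0.11 in the 3 comparisons. A fit without a parental sample assumes that the lone parental sample varies like the other groups. Fits of fewer samples gave both more and fewer calls, and the causes of these shifts were not tested.

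Over all genes, the 418, 114 and 69 calls became 773, 64 and 7 in fits of only 2 groups, 199, 59 and 12 with the block, 94, 49 and 8 with the block and the exchange, 248, 59 and 4 with the GC correction and the block, and 171, 64 and 13 at an adjusted p of 0.05. The first count was 369 with TMM over all genes, and the third was 152 without a filter and 43 with TMM over all genes. With a sample left out the counts ran from 0 to 833, 39 to 362 and 4 to 172. Deviations from the group mean had a mean r of -0.07 over 7 pairs of samples with the same replicate number (from -0.27 to 0.09). The mean r was 0.03 over 14 pairs with different numbers. Within a group the deviations of a gene sum to 0, so that the pairs are not independent and the second mean is no separate comparator. These values cannot decide whether samples were paired, and the block and the pairing rest on the number alone. At 773042 to 1427141 counted reads per sample, 7 of the 46 genes had too few counts to test, among them NDUFV2 and NDUFA7 with their overlapping 3′ ends.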
